A study of Danio rerio with 4 samples.

Results

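The genes described here encode proteins that carry the large (60S) ribosomal subunit through its later assembly in the nucleolus, its passage through the nucleoplasm and its export and completion in the cytoplasm. They were taken by symbol from a list of 51 names, of which 48 names were found on 50 of the 25522 genes in the Ribo-seq table. The study compared brain tissue of nop2 mutant zebrafish with brain tissue of nop2 siblings, with 1 Ribo-seq library per genotype, which leaves every difference below without a replicate check. Nop2 is a nucleolar RNA methyltransferase needed for large subunit assembly, and the series asks what its loss does to ribosome formation and neural differentiation. The labels give neither the mutant allele nor whether siblings were wild type or heterozygous, nor how many animals were pooled. Sample titles give the age of both groups as 48 days after fertilization, and the design text gives 48 hours.

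A large subunit begins as ribosomal RNA cut from a long precursor in the nucleolus, where many proteins fold it and add ribosomal proteins. The particle then moves into the nucleoplasm, where spacer RNA is trimmed and large ATPases strip off early factors, and an adapter protein takes it through the nuclear pore. In the cytoplasm GTPases and ATPases remove the last placeholder proteins before the subunit can join translation. Most of these roles were worked out in budding yeast, and the placing of each zebrafish gene at a step rests on its yeast or mammalian relative.

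Ribo-seq counts the messenger RNA fragments that ribosomes protect from nuclease, so a count holds both the amount of a transcript and its ribosome load, and total RNA was not analysed here. Libraries held 18884879 footprint reads (mutant) and 20696345 (sibling), and levels are given as CPM, the reads of a gene scaled to the total of its library. A log2 ratio is that of mutant over sibling CPM, and its 95% interval covers counting error only. The 18127 genes whose mean over both libraries reached 1 CPM were kept. Of the 50 genes of the list 49 were kept, and the other was a further rsl24d1 entry without a read in either library. In a tissue of mixed cells, fewer cells of a type and less RNA per cell cannot be told apart.

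As a check of the labels, footprints on nop2 itself stood at 2.17 CPM in the mutant library, against 31.7 CPM in the sibling library, a log2 ratio of -3.85 (95% counting interval -4.36 to -3.41). Tissue markers differed as well. The 10 neuron markers kept had 2709 CPM in all in the mutant library and 3302 CPM in the sibling library, 8 of them lower in the mutant. The 11 muscle markers kept had 20046 and 63263 CPM in the mutant and sibling libraries, all 11 lower in the mutant. Of 12 lens and retina markers, which summed to 1123 CPM in the mutant and 3303 CPM in the sibling library, 11 were lower. Of 11 epidermis markers 9 were higher (25264 CPM in the mutant against 15355 CPM in the sibling library), as were 8 of 9 blood markers (4100 against 2603 CPM). Neural progenitor markers (8 of 11 higher, 1448 CPM in the mutant and 1697 CPM in the sibling library) and proliferation markers (7 of 13 higher, 2317 and 2422 CPM) did not move one way. No marker of these lists was at 0 in either library, and their part in the results below was not tested.

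As a group the large subunit assembly genes carried more footprints in the mutant library, with ratios of modest size. Of the 49 genes 45 had a log2 ratio above 0, where 44.9% of all genes kept did, and 4 were below 0, where 55.1% did. Their median log2 ratio was 0.34 and that of all genes was -0.06, with a range among the 49 from -0.26 to 0.93. In the mutant library 11 of them were at least 1.5-fold higher (22.4%, beside 12.4% of all genes) and none was at least 1.5-fold lower (beside 14.5%). With the authors' TPM, 7 of the 49 were at least 1.5-fold higher (beside 10.9% of all genes) and 7 lay below 0 (beside 59.8%). Library totals that leave out the muscle, eye, skin and blood markers gave the same counts (beside 10.9% and 59.6% of all genes). At 1.5-fold the excess over all genes was smaller there than with the full totals. None reached 2-fold in either direction, where 4.72% of all genes passed 2-fold on the higher side and 5.7% on the lower side. Summed over the 49 genes, footprints came to 2092 CPM in the mutant library and 1616 CPM in the sibling library, a log2 ratio of 0.37 (0.35 to 0.39). Counting intervals, computed with the full library totals only, lay above 0 for 40 genes, below 0 for 1 and across 0 for 8. The same count was not made over all genes kept, so these numbers have no background share beside them. Of the 49 genes, the authors' deposited table gave 37 a positive log2 fold change with an FDR under 0.05 and 1 a negative one, and 11 had a larger FDR. Those FDR values compare 1 library with 1 library, and 50.9% of all genes kept had an FDR under 0.05 in the authors' deposited table.

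**Figure D1:**
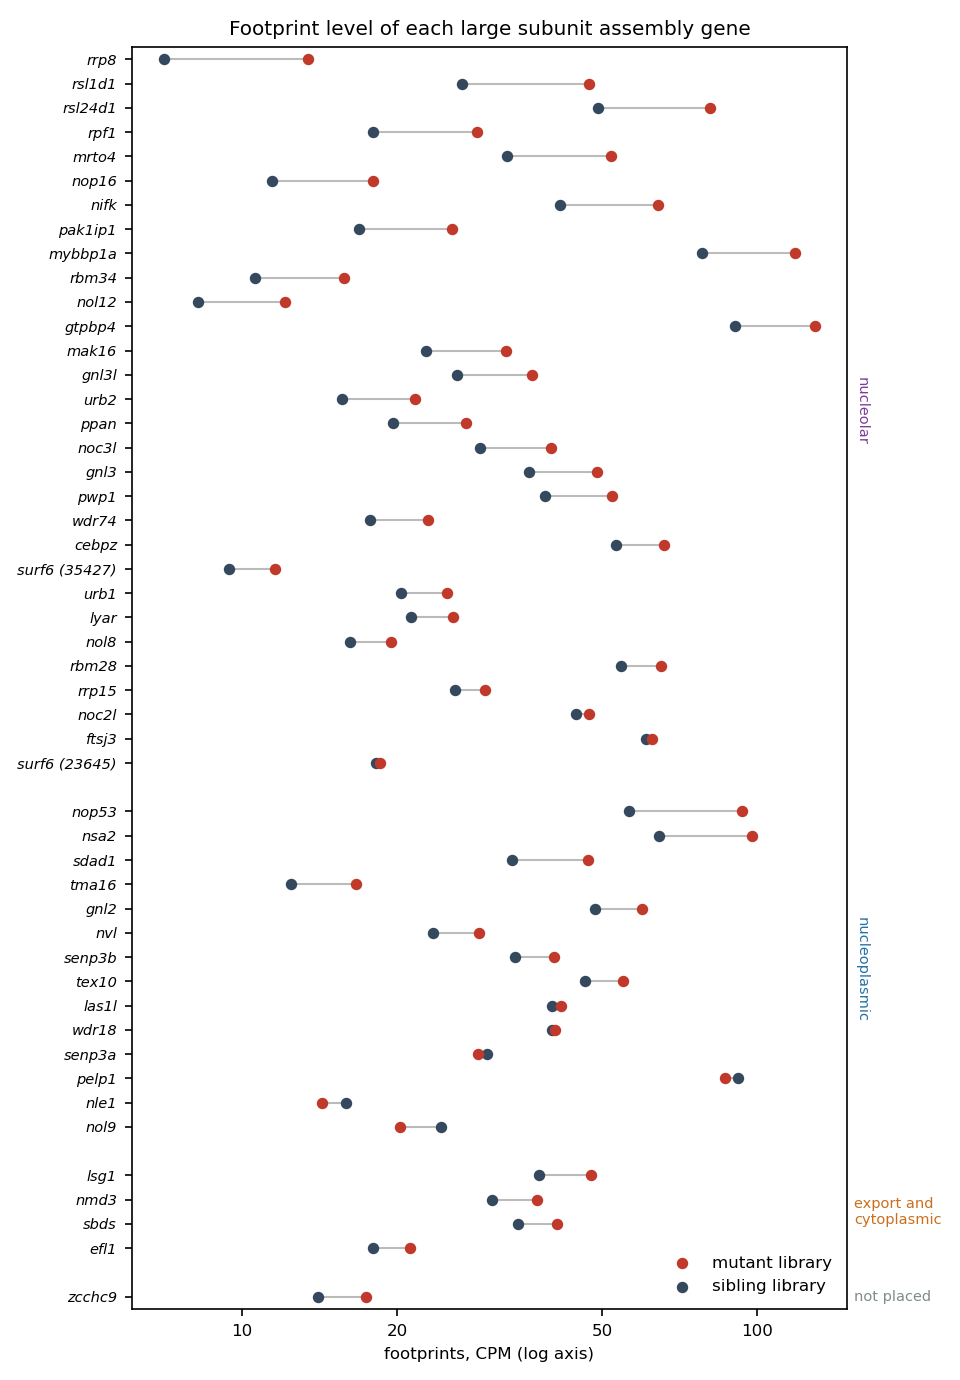
Footprint level in CPM (log axis) of each of the 49 genes kept, red for the mutant and dark blue for the sibling library, with genes grouped by step and ordered by ratio within a step. The red point lies right of the blue one for 45 genes, and the 4 exceptions, senp3a, pelp1, nle1 and nol9, stand together in the nucleoplasmic step.

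By step, the median ratio was highest for nucleolar factors. The 30 nucleolar genes all lay above 0 (with the authors' TPM, or with library totals that leave out the muscle, eye, skin and blood markers, ftsj3 and 1 of 2 surf6 genes lay between -0.03 and -0.02), with a median log2 ratio of 0.47 and a range of 0.02 to 0.93. Of the 14 nucleoplasmic genes 10 lay above 0, with a median of 0.25 and a range of -0.26 to 0.72. The 4 genes of export and of the cytoplasmic steps ran from 0.24 to 0.34, with a median of 0.27. Summed footprints were 1257 CPM in the mutant and 920.1 CPM in the sibling library for the nucleolar step (log2 ratio 0.45, 0.42 to 0.48). The nucleoplasmic step summed to 670.2 CPM in the mutant and 561.0 CPM in the sibling library (0.26, 0.22 to 0.29), and the export and cytoplasmic step to 147 and 120.5 CPM (0.29, 0.21 to 0.36). The ranges of the 3 steps overlap, and members of a step are not replicates, so the order of the medians was not tested. The order of the sums depends on placing: with gtpbp4, mrto4 and rsl24d1, which join early and leave in the cytoplasm, counted at their release, the export and cytoplasmic step had a summed log2 ratio of 0.48 (0.43 to 0.53) over 7 genes and the nucleolar step 0.41 (0.38 to 0.44) over 27. The order of the sums also depends on the 7 genes of the PELP1 complex, described below. The other 7 nucleoplasmic genes had a median log2 ratio of 0.42. Their summed log2 ratio of 0.49 (0.44 to 0.54) was above that of the nucleolar step, with overlapping counting intervals. The intervals of the export and nucleolar sums with genes counted at their release overlap as well. The zinc finger gene zcchc9, placed at no step, had 328 reads in the mutant and 290 reads in the sibling library (0.31, 0.08 to 0.54).

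**Figure D2:**
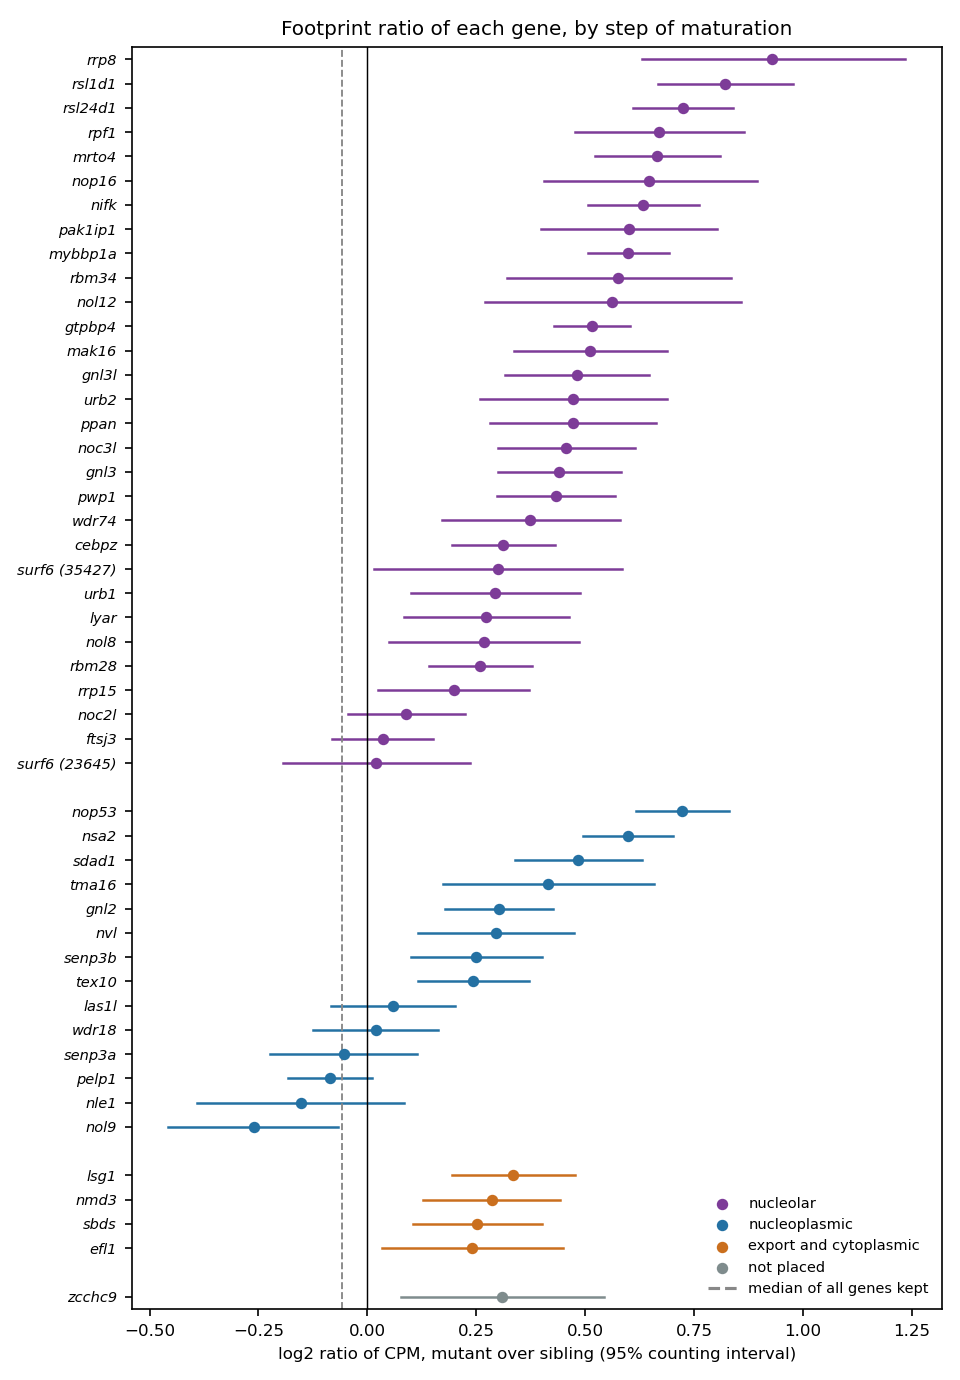
Log2 ratio of CPM, mutant over sibling, of each gene with its 95% counting interval (horizontal line), coloured by step. The dashed line marks the median of all genes kept (-0.06), and rrp8 at 0.93 and nol9 at -0.26 stand at the ends of the range.

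Within the nucleolus the largest CPM ratio belonged to rrp8, whose yeast and human relatives methylate an adenosine of large subunit ribosomal RNA. It had 254 reads (13.4 CPM) in the mutant library and 146 reads (7.05 CPM) in the sibling library, a log2 ratio of 0.93 (0.63 to 1.24). With the authors' length-scaled TPM values its log2 ratio was 0.65, below those of rsl1d1 (0.76), rpf1 (0.68) and rsl24d1 (0.67), and further from its CPM ratio than that of any other of the 49 genes. The other methyltransferase of the list, ftsj3, which methylates ribose in yeast large subunit RNA under the name Spb1, had 62.4 CPM in the mutant and 60.9 CPM in the sibling library (0.04, -0.08 to 0.15). The ratios of these RNA-modifying enzymes therefore spanned almost the whole range of the nucleolar step.

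The gene rsl1d1, which encodes a nucleolar protein with a ribosomal L1 domain, had 47.1 CPM in the mutant library and 26.7 CPM in the sibling library (0.82, 0.67 to 0.98). In yeast, Rpf1, Mak16, Rrp1 and Nsa1 sit together on nucleolar particles, and rpf1 had 28.6 CPM in the mutant and 18.0 CPM in the sibling library (0.67, 0.48 to 0.86). Its partner mak16 had 32.5 CPM in the mutant and 22.8 CPM in the sibling library (0.51, 0.34 to 0.69). The relative of Nsa1, wdr74, had 22.9 and 17.7 CPM in the mutant and sibling libraries (0.37, 0.17 to 0.58). All 3 genes of this module were higher in the mutant library, and their counting intervals overlap. A gene spelled RRP1 in the table, which the symbol rule left out, had 51.1 CPM in the mutant and 47.6 CPM in the sibling library (0.10, -0.03 to 0.23), below the other 3.

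The Noc proteins enter the nucleolar particle in pairs in yeast. Of their genes, noc3l had 39.7 CPM in the mutant library and 28.9 CPM in the sibling library (0.46, 0.30 to 0.61), and cebpz, the relative of yeast Noc1, had 66.0 and 53.1 CPM (0.31, 0.19 to 0.43). The shared partner noc2l had 47.2 CPM in the mutant and 44.4 CPM in the sibling library (0.09, -0.05 to 0.22). The counting interval of noc2l includes 0 and lies wholly below that of noc3l, a difference between genes that has no replicate check. A further entry spelled CEBPZ held no read in either library.

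RNA-binding proteins of the spacer and the domains it joins were also higher. The gene nifk, relative of the yeast spacer-binding protein Nop15, had 64.2 CPM in the mutant and 41.4 CPM in the sibling library (0.63, 0.51 to 0.76). The rbm34 gene had 15.8 CPM in the mutant and 10.6 CPM in the sibling library (0.58, 0.32 to 0.84), and rbm28, relative of yeast Nop4, had 65.0 and 54.3 CPM (0.26, 0.14 to 0.38). The nucleolar protein gene nol8 had 19.5 CPM in the mutant and 16.2 CPM in the sibling library (0.27, 0.05 to 0.49). All 4 lay above 0. Intervals of rbm34 and rbm28 overlap, while that of nifk lies wholly above those of rbm28 and nol8.

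Per length and library, the most abundant of all 49 genes was rsl24d1, with 144 TPM in the mutant and 90.7 TPM in the sibling library. Its product holds the place of the ribosomal protein eL24 on the nuclear particle until an ATPase pulls it off in the cytoplasm, as shown for yeast Rlp24. In CPM rsl24d1 stood at 81.0 in the mutant and 49.0 in the sibling library (log2 ratio 0.72, 0.61 to 0.84). The gene of the ribosomal protein that replaces it, rpl24, had 664 CPM in the mutant and 417 CPM in the sibling library (0.67, 0.63 to 0.71). Placeholder and replacement were thus higher by similar amounts. The ratio of rpl24 was also close to the median of all 44 genes of 60S ribosomal proteins (0.73).

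The other placeholder pair diverged. The mrto4 gene encodes the relative of yeast Mrt4, which holds the site of the stalk protein P0 until the cytoplasm, and it had 51.9 CPM in the mutant library and 32.7 CPM in the sibling library (0.67, 0.52 to 0.81). The gene of P0, rplp0, had 213 CPM in the mutant and 404 CPM in the sibling library (-0.92, -0.98 to -0.87). Of the other stalk protein genes, those read here, rplp1 (-0.84, -0.89 to -0.79) and rplp2 (-2.38, -2.62 to -2.15), were lower too. In the sibling library rplp1, whose counts were fractional, had 455 CPM and rplp2 had 50.0 CPM. With rplp0 they were the only 3 of 44 genes of 60S ribosomal proteins below 0. Per length, mrto4 stood at 62.6 TPM in the mutant and 41.1 TPM in the sibling library, and rplp0 at 199 TPM in the mutant and 393 TPM in the sibling library. In yeast the phosphatase Yvh1 releases Mrt4, and its relative dusp12 had only 60 and 45 reads in the mutant and sibling libraries (0.54, -0.03 to 1.14).

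The abundant GTPase gene gtpbp4, relative of yeast Nog1, joins in the nucleolus and leaves in the cytoplasm. It had 129 CPM in the mutant library, the highest CPM of the 49 genes there, and 90.5 CPM in the sibling library (0.52, 0.43 to 0.60). The nucleolar gene mybbp1a had 118 CPM in the mutant and 78.1 CPM in the sibling library (0.60, 0.51 to 0.69). Its product is known in mammals as a nucleolar protein tied to RNA polymerase I and to p53. The remaining nucleolar genes ran from surf6 at the low end to nop16 (0.65) and pak1ip1 (0.60). The surf6 symbol stood on 2 genes, both with fractional counts, at 0.02 (-0.19 to 0.24) and 0.30 (0.01 to 0.59), so reads may have been split between them or with other genes, and together they had 30.1 CPM in the mutant and 27.6 CPM in the sibling library (0.12, -0.05 to 0.29).

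The nucleoplasmic step held both some of the larger ratios of the list and the 4 ratios below 0. Its largest ratio belonged to nop53, whose yeast relative brings the RNA exosome to the spacer that remains on the precursor, and which had 93.2 CPM in the mutant and 56.5 CPM in the sibling library (0.72, 0.62 to 0.83). The gene nsa2, whose yeast relative works with Nog1, had 97.6 CPM in the mutant and 64.5 CPM in the sibling library (0.60, 0.50 to 0.70), and sdad1, relative of yeast Sda1, had 46.9 and 33.5 CPM (0.48, 0.34 to 0.63). After rsl24d1, nsa2 (110.0 TPM in the mutant, 75.7 TPM in the sibling library) and nop53 (86.8 and 57.1 TPM) were the most abundant of the 49 genes per length. The helper gene tma16 had 16.6 CPM in the mutant and 12.5 CPM in the sibling library (0.42, 0.17 to 0.66).

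The ATPase gene nvl, relative of yeast Rix7, had 28.8 CPM in the mutant and 23.5 CPM in the sibling library (0.29, 0.12 to 0.47). Rix7 takes Nsa1 off the particle as it leaves the nucleolus, and the zebrafish wdr74 gene named above had a ratio whose interval overlaps that of nvl. The next ATPase in the pathway, midasin, strips the Notchless protein from nucleoplasmic particles. The Notchless gene nle1 had 14.3 CPM in the mutant and 15.9 CPM in the sibling library (-0.15, -0.39 to 0.08). The midasin gene stands in the table as MDN1, which the symbol rule left out, with 79.5 CPM in the mutant and 84.9 CPM in the sibling library (-0.09, -0.20 to 0.01). Enzyme and substrate genes thus both lay slightly below 0 with intervals that include it, that of MDN1 barely (upper bound 0.005) and only with the full library totals used here.

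The genes of the PELP1 complex had nearly equal footprint sums in both libraries. In human cells PELP1, TEX10 and WDR18 form a scaffold that works with the nuclease LAS1L, the RNA kinase NOL9 and the SUMO protease SENP3 to trim the internal spacer and to recruit midasin. Of its 7 zebrafish genes 4 were higher and 3 lower, where 44.9% of all genes kept were higher. The split became 5 and 2 with TMM or DESeq2 scaling, where senp3a lay just above 0 (49.7% of all genes higher). It became 3 and 4 with the authors' TPM (40.2%) or with totals that leave out the marker lists (40.4%). The median log2 ratio of the complex was 0.02 (-0.04 with TPM and -0.03 with those totals). That of all genes was -0.06 (-0.12 with TPM and -0.11 with those totals). The genes of the complex summed to 313 CPM in the mutant and 306.3 CPM in the sibling library (0.03, -0.02 to 0.08). The other 7 nucleoplasmic genes had a median of 0.42 and summed to 357 and 254.7 CPM in the mutant and sibling libraries (0.49, 0.44 to 0.54). The ranges of these groups overlap: tex10 and senp3b of the complex lay close to nvl and gnl2, and nle1 lay below 0 outside the complex. The difference between the groups was not tested. The other 42 genes of the list had a median of 0.44, and 41 of them lay above 0.

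Within the complex, nol9 had 383 reads (20.3 CPM) in the mutant library and 503 reads (24.3 CPM) in the sibling library, a log2 ratio of -0.26 (-0.46 to -0.07). With the full library totals it was the only one of the 49 genes whose counting interval lay below 0. The scaffold gene pelp1 had 86.6 CPM in the mutant and 91.9 CPM in the sibling library (-0.09, -0.18 to 0.01). Its partner wdr18 had 766 and 828 reads in the mutant and sibling libraries (0.02, -0.12 to 0.16), and the nuclease gene las1l had 786 and 827 reads (0.06, -0.08 to 0.20). The third scaffold gene, tex10, was higher, with 54.9 CPM in the mutant and 46.4 CPM in the sibling library (0.24, 0.12 to 0.37).

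Zebrafish has a pair of SENP3 genes. The gene senp3b had 40.4 CPM in the mutant and 33.9 CPM in the sibling library (0.25, 0.10 to 0.40), and senp3a had 28.8 and 29.9 CPM (-0.05, -0.22 to 0.11). Their counting intervals overlap, and both had fractional counts, so reads shared between them may have been split by the authors' counting.

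**Figure D3:**
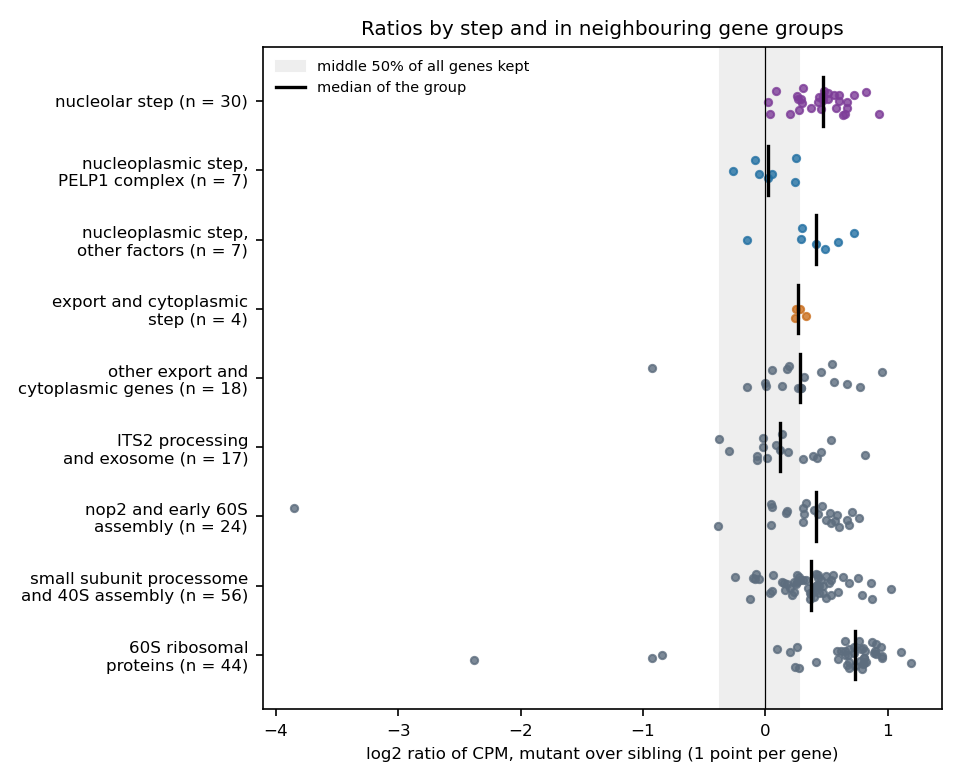
Log2 ratio of CPM, mutant over sibling, of each gene (points, spread vertically at random within a row) by step and in neighbouring gene groups, with the median of each group (black bar). The grey band holds the middle 50% of all genes kept. The PELP1 complex has a median of 0.02 and lies within that band, while the nucleolar step (0.47) and the 60S ribosomal proteins (0.73) have medians right of it. Right of it too are the medians of the other nucleoplasmic factors (0.42), the early 60S genes with nop2 included (0.41), the small subunit genes (0.37) and the other export and cytoplasmic genes (0.28). The medians of the export and cytoplasmic step (0.27) and of the spacer trimming and exosome genes (0.12) also lie within the band.

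A family of circularly permuted GTPases serves every compartment, and its 4 genes had ratios of similar size. The nucleolar gnl3, which encodes nucleostemin, had 48.9 CPM in the mutant and 36.0 CPM in the sibling library (0.44, 0.30 to 0.58). Its relative gnl3l had 36.5 CPM in the mutant and 26.1 CPM in the sibling library (0.48, 0.32 to 0.65). The nucleoplasmic gnl2, relative of yeast Nog2, had 59.6 CPM in the mutant and 48.4 CPM in the sibling library (0.30, 0.18 to 0.43), and the cytoplasmic lsg1 had 47.6 and 37.7 CPM (0.34, 0.20 to 0.48). All 4 were higher in the mutant library, with counting intervals that overlap one another.

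The 4 genes of export and the last cytoplasmic steps lay close together, whereas with the 3 genes counted at their release the 7 ran from 0.24 to 0.72. The export adapter gene nmd3, which bridges the particle to the exportin Xpo1, had 37.3 CPM in the mutant and 30.6 CPM in the sibling library (0.29, 0.13 to 0.44). The genes sbds and efl1 encode the pair that evicts the anti-association factor eIF6. The sbds gene had 40.9 CPM in the mutant and 34.3 CPM in the sibling library (0.25, 0.10 to 0.40), and efl1 had 21.2 and 17.9 CPM (0.24, 0.03 to 0.45). The gene of eIF6 itself, eif6, had 75.8 CPM in the mutant and 61.0 CPM in the sibling library (0.31, 0.20 to 0.42). The counting intervals of these 4 genes overlap. The ATPase that removes Rlp24 in yeast has the human relative SPATA5, and its gene stands in the table as AFG2A, outside the symbol rule, with 129 and 115 reads in the mutant and sibling libraries (0.30, -0.08 to 0.67).

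Other genes of the pathway were read from lists. Of 18 further export and cytoplasmic genes kept, 15 were higher in the mutant library, 3 of them past 1.5-fold, and the median log2 ratio was 0.28. The 3 were the ribosomal protein genes rpl23 (0.95), rpl10 (0.77) and rpl24, and rplp0 was lower by more than 1.5-fold. Without these 4 ribosomal proteins 12 of 14 were higher, none by 1.5-fold, with a median of 0.23. The exportin genes xpo1a and xpo1b stood at -0.0026 and 0.27, and afg2b, relative of a partner of SPATA5, at -0.15 (-0.54 to 0.23). Genes of spacer trimming and the RNA exosome had a median of 0.12 with 11 of 17 higher. There exosc5 (0.81, 0.59 to 1.03) and exosc2 (0.54) lay highest and isg20l2 (-0.38) and exosc6 (-0.29) lowest, while mtrex, the helicase that Nop53 recruits in yeast, had 68.5 CPM in the mutant and 64.5 CPM in the sibling library (0.09, -0.02 to 0.20).

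Early 60S and small subunit assembly genes had medians close to that of the later genes. Of 23 early 60S assembly genes other than nop2, 22 were higher, with a median of 0.43, from dhx33 (-0.39, -0.73 to -0.05) to nip7 (0.71) and bop1 (0.76). Small subunit processome and 40S assembly genes had a median of 0.37 with 50 of 56 higher, from nat10 (-0.24) and lsm6 (-0.12) to dnttip2 (0.87) and riok3 (1.03). The 44 genes of 60S ribosomal proteins had a median of 0.73, and 35 of them were at least 1.5-fold higher, against 11 of the 49 later assembly genes. At the ends of the ribosomal protein range stood rplp2 (-2.38) and rplp0, and rpl39 (1.11) and rpl11 (1.19). Of 10 targets of p53 kept, all 10 were higher, and their median of 1.85 was above the ratio of each of the 49 assembly genes. The lowest, tp53inp1 (0.08, -0.17 to 0.33) and sesn1 (0.22), lay below the median of the assembly genes. Highest were rps27l (2.945) and cdkn1a (3.26).

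Shorter genes of the list tended to have larger ratios. The number of sibling reads per TPM unit follows the length that the authors used for a gene, and across the 49 genes it correlated with the log2 ratio at a Spearman rho of -0.40 (Pearson r -0.36 on log2 length), a description across genes that share both libraries. Across all genes kept the rho was -0.10. The 25 genes at or below the median of 33.6 reads per TPM had a median log2 ratio of 0.51, with 10 at least 1.5-fold higher (40%). The 24 longer genes had a median of 0.29, with 1 at least 1.5-fold higher (4.17%), namely mybbp1a. Of all genes kept, of any length, 12.4% were at least 1.5-fold higher. The steps differed in length as well, with median reads per TPM of 29.2 (nucleolar), 37.3 (nucleoplasmic) and 38.0 (export and cytoplasmic). The part of length in the order of the step medians was not tested. Without the PELP1 complex the rho was -0.36 over 42 genes. The level of a gene was not related to its ratio in this way (rho 0.02 with mean CPM over the 49 genes).

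**Figure D4:**
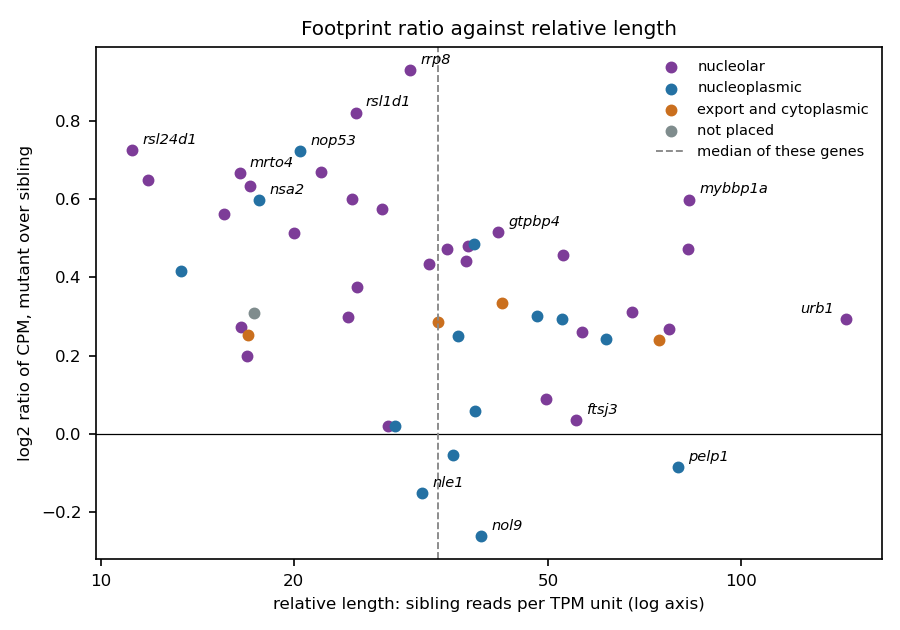
Log2 ratio of CPM, mutant over sibling, of the 49 genes against relative length, given as sibling reads per TPM unit (log axis), coloured by step. The dashed line marks the median relative length, and 10 of the 11 genes that were at least 1.5-fold higher lie at or left of it, with mybbp1a the exception.

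RNA bisulfite sequencing of the same kinds of brain tissue listed differential 5-methylcytosine loci. Of its 617 distinct loci on 92 genes and 52 regions on 51 genes in the authors' deposited tables, none carried the name of a gene described here, MDN1, RRP1 and AFG2A included. The 92 and 51 genes amount to 0.36% and 0.20% of the genes in the Ribo-seq table, shares at which a list of this size may hold none, so nothing about the assembly genes is read from the 0. Those tables hold only loci that passed the authors' threshold, so methylation of these messengers below it was not seen.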

How the data were processed

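Per the file headers, the Ribo-seq table holds expected counts, deposited by the authors as estimated reads per gene, and 25.7% of genes had a count that was not whole. Counts were rounded before use. The authors also deposited TPM (scaled by gene length and library), its log2 ratio of mutant to sibling, and a p-value and FDR from a test that the sources used here do not give. The authors' bisulfite tables compare conditions 1 and 2, which no header ties to a genotype, and only their gene names were used. The submitters' processing notes name the build GRCz11 and the tools methylKit, SAMtools, HISAT2, STAR, Bowtie2, fastp and Trimmomatic 0.38.

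CPM ratios used a pseudocount of 0.5 and a minimum mean of 1 CPM, with exact Clopper-Pearson intervals at 95% conditional on the sum of both counts (scipy 1.17.1, Python 3.11.15). The code was run on simulated counts with counting error only, as the intervals assume, which checks the code and not their fit to real footprint counts. Reads without molecular identifiers are not independent, so intervals may be too narrow. No p-value was computed, since each genotype had 1 library. TMM factors came from edgeR 4.0.16 and size factors from DESeq2 1.42.0. Genes named were the 3 highest and 3 lowest ratios and the 2 highest TPM of each step, all genes of small modules, and the 2 highest and 2 lowest of each neighbouring list, with others named after their values were seen. The genes, lists and steps were chosen with earlier results of these data known. No sequence or coordinate is given, since no genome or annotation of GRCz11 was used here.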

Additional observations from a re-analysis of the deposited data

How the results depend on the processing

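The direction of the medians of the 49 genes and of each step held under every setting tried, while that of the PELP1 complex turned with TPM and with totals that leave out markers (settings: TMM, DESeq2 size factors, library totals without muscle, eye, skin and blood markers, the authors' TPM, unrounded counts, a pseudocount of 5, no minimum or one of 10 CPM). Over these the median log2 ratio of the assembly genes ran from 0.28 to 0.39, and the median of all genes moved by at most 0.06. Both minimum settings kept the same 49 genes, so they could not move the medians of the assembly genes. TMM, DESeq2 and marker-free totals shift every gene by the same amount, so they could not move differences between genes or steps. Counting intervals were computed with the full library totals only, so those with a bound within 0.06 of 0, such as that of pelp1, could change sides. With library totals that leave out the marker lists, and likewise with TPM, 7 genes were lower (ftsj3, wdr18 and 1 surf6 gene besides the 4). Under both, 7 were at least 1.5-fold higher, beside 10.9% of all genes. TPM also moved nifk to 0.49 and nop53 to 0.60, beyond their counting intervals. Both chosen after seeing the data, adding MDN1, RRP1 and AFG2A gave a median of 0.31 over 52 genes, and keeping the 36 genes with whole counts gave a median of 0.44 with 2 genes lower. With gtpbp4, mrto4 and rsl24d1 placed at their release, the export and cytoplasmic median was 0.34 over 7 genes, against 0.46 for 27 nucleolar genes. The order of the summed ratios turned (0.48 against 0.41), with overlapping counting intervals. The median of the 49 genes lay 0.39 above that of all genes kept with the full totals, with marker-free totals and with TPM. Why TPM moved nifk and nop53 further, and why the 36 genes with whole counts had a higher median, was not tested. No paired analysis was possible because each genotype had 1 library, and no replicate could be left out.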
